A study of Gallus gallus with 8 samples.

Results

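The HSP70 and HSP110 chaperones are described here in the breast muscle of broiler chickens whose meat had a high or a low shear force. The members were taken by gene symbol: 10 symbols were listed, 9 of them were found in the authors' deposited comparison table, and all 9 were among the 10136 genes kept for testing. They are HSP70, HSPA8 and HSPA14 of the cytosol, HSPH1, HSPA4 and HSPA4L of the HSP110 group, HSPA5 and HYOU1 of the endoplasmic reticulum (ER), and HSPA9 of the mitochondrion. The symbol HSPA2 matched no row of its own. RefSeq lists HSP70 as a synonym of HSPA2 on chromosome 5, the chromosome on which the deposited table places HSP70, so the value of HSP70 stands for both names. The study measured messenger RNA by sequencing in the pectoralis, the breast muscle, of 8 birds, all female, 6 weeks old and of the broiler line Hubbard Flex. Meat of 4 birds had a high and meat of the other 4 a low shear force, the force needed to cut it. They are called high-shear and low-shear birds here. Whole muscle was used, so a smaller number of cells of a type and less RNA per cell cannot be told apart.

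HSP70 proteins bind short hydrophobic stretches of unfolded proteins and release them when ADP is exchanged for ATP. J-domain proteins bring clients and start the ATP hydrolysis, and exchange factors such as the HSP110 proteins, which are enlarged relatives of HSP70, open the cycle again. In muscle these chaperones help to fold and to clear contractile proteins, and heat, exercise and stress before slaughter are known to induce the heat-inducible members through heat shock factors.

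Total expected counts, the estimated reads per gene, lay between 6672776 and 7322205 in high-shear birds and between 5564905 and 7319140 in low-shear birds. Low-shear birds 1 and 3 stood apart from the other 6 on the first principal component (39.0 and 43.9 against -24.4 to -3.27), which held 32.4% of the variance. The value of each member is therefore also given without these birds. Skeletal muscle fibre markers had overlapping summed levels, 134824 to 163966 CPM (counts relative to the scaled library size) in high-shear birds and 125250 to 175947 CPM in low-shear birds, with 6 of 10 lower and a median log2 fold change of -0.02. Markers of some other cells differed between the groups, though none passed an edgeR adjusted p of 0.05. Summed fibroblast markers were at 3292 to 4514 CPM in high-shear birds and 2327 to 3169 CPM in low-shear birds (7 of 7 higher), and the 3 globin genes measured, of 8 erythrocyte markers listed, were at 157 to 610 CPM against 56.1 to 92.7 CPM. The upper end of the globin sum was high-shear bird 2 alone, with HBB at 266 CPM against 72.1 to 84.5 CPM in the other high-shear birds. Endothelial markers were higher in 8 of 8 (277 to 517 against 229 to 394.5 CPM), smooth muscle and pericyte markers in 5 of 6 and adipocyte markers in 3 of 4 (205 to 297 against 120 to 274.5 CPM), while 3 of 6 leukocyte markers were higher (678 to 1600 against 739 to 1204 CPM). The leukocyte sum was mostly CD74, with a log2 fold change of 0.47. CSF1R and CD247 were at 0.11 and 0.04, and PTPRC, LCP1 and CD3E at -0.64, -0.22 and -0.16. These leukocyte markers were named after their values were seen. The smooth muscle sum (992.5 to 1310 against 998 to 1241 CPM) was mostly DES, which is also a skeletal fibre marker and stood at -0.17. TAGLN, RGS5, MYLK, PDGFRB and MYH11 of that list, named after their values were seen, had log2 fold changes of 1.61, 0.85, 0.82, 0.63 and 0.57. Their edgeR adjusted p was 0.107, 0.258, 0.150, 0.657 and 0.261. In this list 4 genes were higher at an unadjusted p under 0.05 in edgeR, where 7.92% of all genes were. So were 4 of 7 fibroblast, 4 of 8 endothelial, 3 of 3 globin, 1 of 4 adipocyte, 0 of 6 leukocyte and 0 of 10 skeletal fibre markers. Lower at that threshold was 1 skeletal fibre marker, and 0 in the other marker lists. Over all genes 49.2% had a negative log2 fold change. The other listed markers, the erythrocyte genes ALAS2 and SLC4A1 among them, had no row with that symbol among the genes kept and are not analysed here. The part of these cells in the chaperone values was not tested.

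All 9 chaperone genes had a negative log2 fold change, that is, a lower level in high-shear birds, where 49.2% of all genes did, and they kept this sign under both other scalings. The estimates covered a wide range. HSP70, HSPH1, HSPA4L and HSPA8 lay between -0.73 and -0.51, HSPA5, HSPA9 and HSPA4 between -0.23 and -0.17, and HSPA14 and HYOU1 at -0.07 and -0.05. The median was -0.23, against 0.006 over the whole set of genes tested. In the quasi-likelihood test of edgeR with Benjamini-Hochberg adjustment, 0 of the 9 passed an adjusted p of 0.05, and 0% of all genes did. Over all genes 1301 had an unadjusted p under 0.05 in edgeR, and DESeq2 called 123 genes. At an unadjusted p under 0.05 the count was 4 of 9, all lower, where 4.91% of all genes were lower at that threshold. In 3 of 9 genes (HSP70, HSPA8 and HSPH1) every high-shear bird lay below every low-shear bird, which was so for 2.29% of all genes. These counts describe genes that were chosen with earlier results of these birds known.

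**Figure D1:**
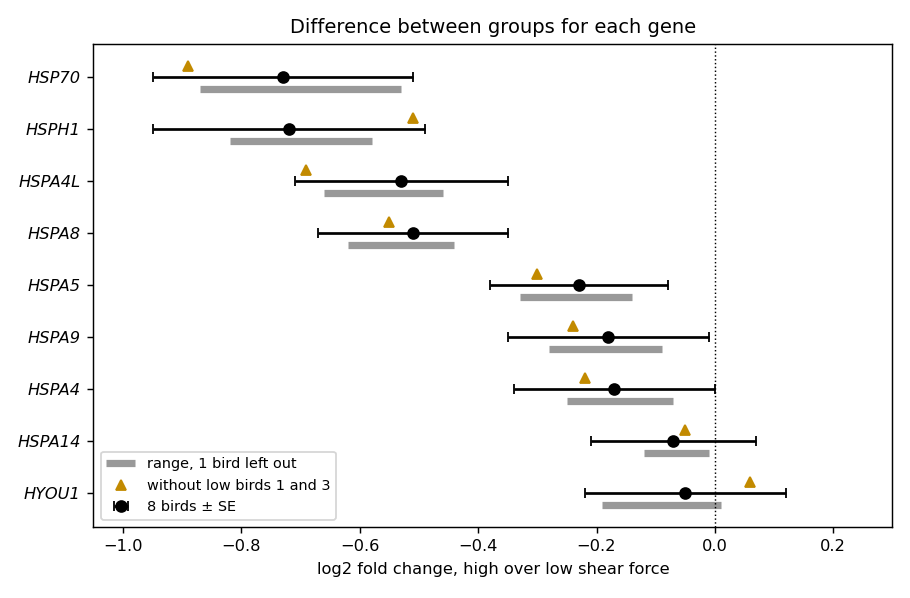
Log2 fold change (x axis, high over low shear force) of each of the 9 genes (y axis). Black points are the 8-bird values with their standard error, grey bars the range with 1 bird left out, and yellow triangles the value without low-shear birds 1 and 3. HSP70 and HSPH1 lie farthest from 0, at -0.73 and -0.72, and HYOU1 nearest, at -0.05.

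HSP70 (ENSGALG00000011715), the heat-inducible cytosolic chaperone of the chicken, is encoded on chromosome 5 (52784177 to 52786081). Positions are those of the deposited table, and the submitters' processing notes name the build galGal4. Its level was 422, 284, 428 and 359 CPM in high-shear birds 1 to 4, against 559.5, 895, 571 and 453.5 CPM in low-shear birds 1 to 4. The groups did not overlap, but the gap between high-shear bird 3 and low-shear bird 4 was narrow. Low-shear bird 2 was the highest of the 8. The means were 373 ± 67.1 CPM in high-shear birds and 620 ± 191 CPM in low-shear birds (SD, n = 4 each). The log2 fold change was -0.73 ± 0.22 (SE), a ratio of 0.603, with an edgeR adjusted p of 0.258 and an unadjusted p of 0.00664. It was -0.53 without low-shear bird 2, -0.87 without low-shear bird 4, and -0.89 ± 0.27 without low-shear birds 1 and 3.

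HSPA8 (ENSGALG00000006512), the constitutive cytosolic HSP70 also known as HSC70, lies on chromosome 24 at 3069116 to 3075912. It was measured at 562, 546, 609 and 629 CPM in high-shear birds 1 to 4, against 675, 876, 983 and 807 CPM in low-shear birds 1 to 4. The high-shear birds lay close together and all below the low-shear birds, whose spread was wider. The means were 587 ± 38.9 CPM in high-shear birds and 835 ± 129 CPM in low-shear birds (SD, n = 4 each). The log2 fold change was -0.51 ± 0.16 (SE), a ratio of 0.702, with an edgeR adjusted p of 0.269 and an unadjusted p of 0.00802. HSPA8 was the single member called by another tool. DESeq2 gave it a log2 fold change of -0.54 with an adjusted p of 0.0493, just under the threshold, which 0.326% of all genes passed in that direction. With 1 bird left out the edgeR value ran from -0.62 to -0.44, and without low-shear birds 1 and 3 it was -0.55 ± 0.18.

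HSPA14 (ENSGALG00000006643), a cytosolic HSP70 that in human cells pairs with the J-domain protein DNAJC2 on the ribosome, lies on chromosome 1 at 7305886 to 7316801. It was at 25.4, 26, 20.6 and 22.6 CPM in high-shear birds 1 to 4, against 26.4, 24.2, 24.6 and 23.7 CPM in low-shear birds 1 to 4. High-shear birds 3 and 4 lay below every low-shear bird, and the other 2 high-shear birds lay within the low-shear range. A log2 fold change of -0.07 ± 0.14 (SE; edgeR adjusted p = 0.866) was obtained, and the value was -0.01 without high-shear bird 3, the lowest of the 8, and -0.05 without low-shear birds 1 and 3.

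**Figure D2:**
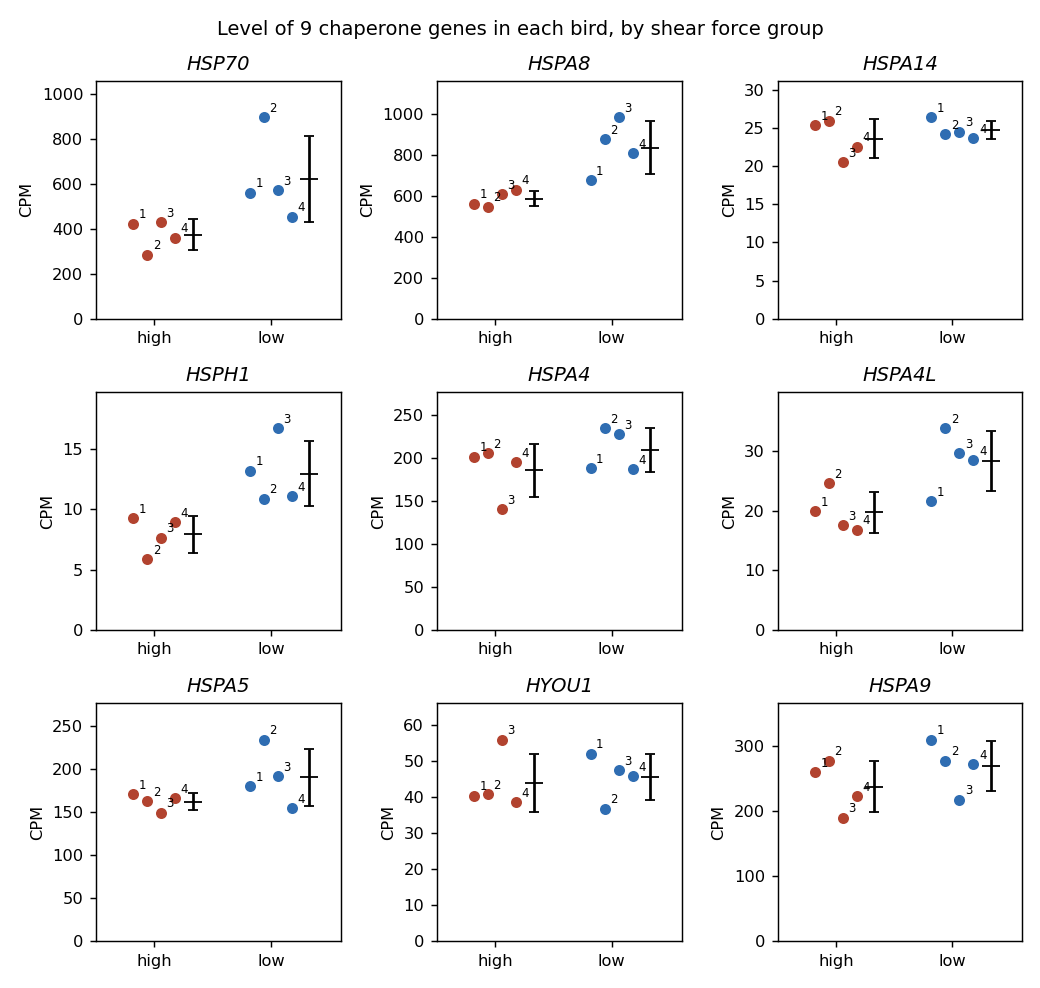
Level of each of the 9 genes in CPM (y axes, each from 0) in the 4 high-shear and 4 low-shear birds. Points are birds with their replicate number, and black bars the mean ± SD. HSP70, HSPA8 and HSPH1 show no overlap between the groups, and in HSPA14 and HYOU1 the groups overlap.

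Among the HSP110 proteins, which exchange the nucleotide of cytosolic HSP70 and hold unfolded clients, HSPH1 had the most negative estimate and HSPA4 the one nearest to 0. HSPH1 (ENSGALG00000017077), the heat-inducible form known in mammals as HSP105, lies on chromosome 1 at 174262982 to 174286406. It had the lowest counts of the 9 genes, 42 to 130 per bird, so its values carry more counting error. Its level was 9.26, 5.84, 7.65 and 8.94 CPM in high-shear birds 1 to 4, against 13.2, 10.9, 16.7 and 11.1 CPM in low-shear birds 1 to 4. The groups did not overlap, with high-shear bird 2 the lowest and low-shear bird 3 the highest. The log2 fold change was -0.72 ± 0.23 (SE), a ratio of 0.608, with an edgeR adjusted p of 0.269 and an unadjusted p of 0.00813. It was -0.58 without low-shear bird 3, and -0.51 ± 0.26 without low-shear birds 1 and 3, where the unadjusted p was 0.0779.

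HSPA4L (ENSGALG00000010185), a paralogue of HSPA4, lies on chromosome 4 at 33746859 to 33769346. It was at 19.96, 24.6, 17.6 and 16.9 CPM in high-shear birds 1 to 4, against 21.7, 33.9, 29.7 and 28.6 CPM in low-shear birds 1 to 4. One pair of birds crossed: high-shear bird 2 lay above low-shear bird 1. The means were 19.7 ± 3.5 CPM in high-shear birds and 28.45 ± 5.07 CPM in low-shear birds (SD, n = 4 each). HSPA4L had a log2 fold change of -0.53 ± 0.18 (SE; edgeR adjusted p = 0.315, unadjusted p = 0.0148), and -0.69 ± 0.20 without low-shear birds 1 and 3.

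HSPA4 (ENSGALG00000007273, chromosome 13, 16530629 to 16547788) was at 201, 205, 140 and 195 CPM in high-shear birds 1 to 4, against 187.5, 234, 228 and 187 CPM in low-shear birds 1 to 4. Apart from high-shear bird 3, the high-shear birds lay within the range of the low-shear birds. HSPA4 had a log2 fold change of -0.17 ± 0.17 (SE; edgeR adjusted p = 0.670), -0.07 without high-shear bird 3, and -0.22 ± 0.21 without low-shear birds 1 and 3.

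HSPA5 (ENSGALG00000001000), also called BiP or GRP78, is the HSP70 of the ER and a sensor partner of the unfolded protein response. It lies on chromosome 17 at 9591907 to 9595959. It was measured at 171, 162, 149 and 166 CPM in high-shear birds 1 to 4, against 180, 234, 192 and 154 CPM in low-shear birds 1 to 4. The high-shear birds varied little and overlapped with low-shear bird 4. The means were 162 ± 9.36 CPM in high-shear birds and 190 ± 33.2 CPM in low-shear birds (SD, n = 4 each), a log2 fold change of -0.23 ± 0.15 (SE; edgeR adjusted p = 0.539). Its value was -0.14 without low-shear bird 2, -0.33 without low-shear bird 4, and -0.30 ± 0.21 without low-shear birds 1 and 3.

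HYOU1 (ENSGALG00000007659), the enlarged HSP70 of the ER that exchanges the nucleotide of HSPA5 and is also known as GRP170, lies on chromosome 24 at 5669910 to 5683409. It was at 40.4, 40.9, 56.1 and 38.7 CPM in high-shear birds 1 to 4, against 52.1, 36.9, 47.6 and 45.9 CPM in low-shear birds 1 to 4. Both the highest and the second lowest bird belonged to the high-shear group. HYOU1 had a log2 fold change of -0.05 ± 0.17 (SE; edgeR adjusted p = 0.913), and its sign was not stable: it was -0.19 without high-shear bird 3, 0.01 without high-shear bird 4, and 0.06 ± 0.20 without low-shear birds 1 and 3.

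HSPA9 (ENSGALG00000002363), or mortalin, is the HSP70 of the mitochondrial matrix and drives the import of proteins into it. It lies on chromosome 13 at 2134785 to 2156387. It was at 260, 277, 190 and 223 CPM in high-shear birds 1 to 4, against 310, 277, 217 and 271 CPM in low-shear birds 1 to 4. The groups overlapped in most birds. The means were 237 ± 39.1 CPM in high-shear birds and 269 ± 38.4 CPM in low-shear birds (SD, n = 4 each), a log2 fold change of -0.18 ± 0.17 (SE; edgeR adjusted p = 0.670). It was -0.09 without high-shear bird 3, -0.28 without low-shear bird 3, and -0.24 ± 0.20 without low-shear birds 1 and 3.

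The genes did not share the same extreme birds. Among the low-shear birds, bird 2 was the highest of all 8 for HSP70, HSPA4, HSPA4L and HSPA5 and the lowest for HYOU1, whereas bird 3 was the highest for HSPA8 and HSPH1, and bird 1 for HSPA9 and HSPA14. Among the high-shear birds, bird 3 was the lowest for HSPA4, HSPA5, HSPA9 and HSPA14 and the highest of all 8 for HYOU1, while bird 2 was the lowest for HSP70, HSPA8 and HSPH1. These ranks are of CPM and can depend on how libraries are scaled. The TMM scaling factor of low-shear bird 2 was 0.8705, the lowest of the 8, which raises the CPM values of that bird. HSP70 had the widest range around its own mean, from -0.73 to 0.93 on the log2 scale, and HSPA14 the narrowest, from -0.23 to 0.13. Added up, the 9 genes were at 1711, 1573, 1618 and 1659 CPM in high-shear birds 1 to 4, against 2025, 2621, 2309 and 1983 CPM in low-shear birds 1 to 4. HSP70 and HSPA8 made up 52.8% to 64.1% of this sum in high-shear birds and 61.0% to 67.5% in low-shear birds. These sums and shares, and the ratios below, rest on counts that were not divided by transcript length, which is not used here. They do not tell which gene had more transcripts, and the ratios are compared only between the groups of birds.

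**Figure D3:**
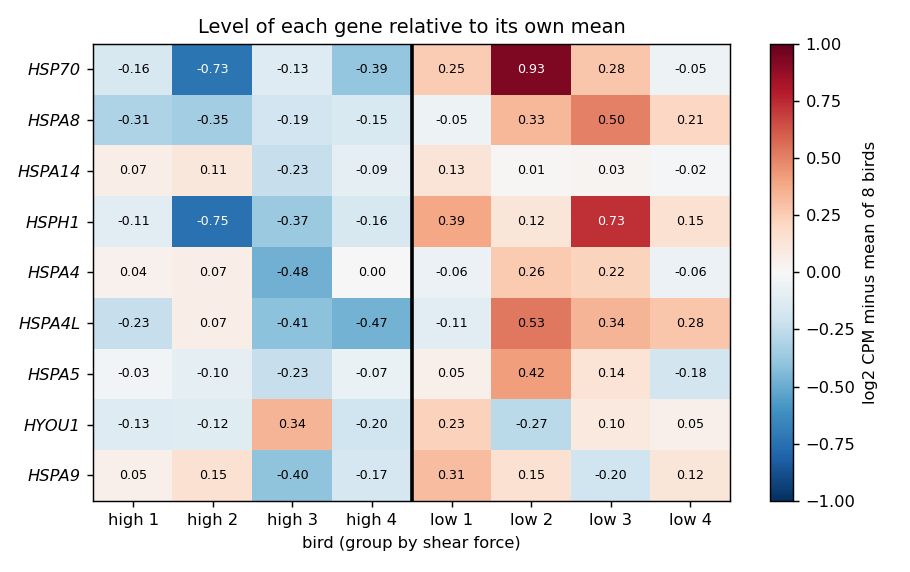
Log2 CPM of each gene (rows) in each bird (columns) minus the mean of that gene over the 8 birds. The black line parts the high from the low-shear birds. HSP70 ranges from -0.73 in high-shear bird 2 to 0.93 in low-shear bird 2, and HYOU1 is at 0.34 in high-shear bird 3.

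Whether the genes differed from one another in their change was asked with 4 ratios within each bird, which do not depend on how libraries are scaled. The 4 ratios were chosen with earlier results of these birds known. All have HSPA8 as the denominator, so they are not independent of one another. HSP70 over HSPA8, the inducible over the constitutive form, had log2 ratios of counts of -0.41, -0.94, -0.51 and -0.81 in high-shear birds 1 to 4, against -0.27, 0.03, -0.78 and -0.83 in low-shear birds 1 to 4. The groups overlapped, and the difference of -0.20 was within the spread between birds (exact permutation test over the 70 assignments of birds, 2-sided p = 0.429, adjusted p = 0.429). The ratio of HSPH1 to HSPA8 averaged -6.23 ± 0.26 in high-shear birds and -6.02 ± 0.30 in low-shear birds (SD, n = 4 each; exact permutation p = 0.371, adjusted p = 0.429). Its difference of -0.21 was 0.03 without low-shear birds 1 and 3. The ER form HSPA5 over HSPA8 averaged -1.86 ± 0.15 against -2.14 ± 0.27 on the log2 scale, a difference of 0.28 (exact permutation p = 0.171, adjusted p = 0.429). The mitochondrial form HSPA9 over HSPA8 averaged -1.32 ± 0.33 against -1.63 ± 0.43, a difference of 0.32 (exact permutation p = 0.257, adjusted p = 0.429). The smallest unadjusted p that 4 against 4 birds allow is 0.0286. After adjustment over the 4 ratios, a lone ratio at that p could not pass, since most of the others had to reach it too. None of the 4 ratios passed. A larger difference in HSPA8 than in HSPA5 or HSPA9 was not shown, and for a lone ratio this test could not have shown it.

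**Figure D4:**
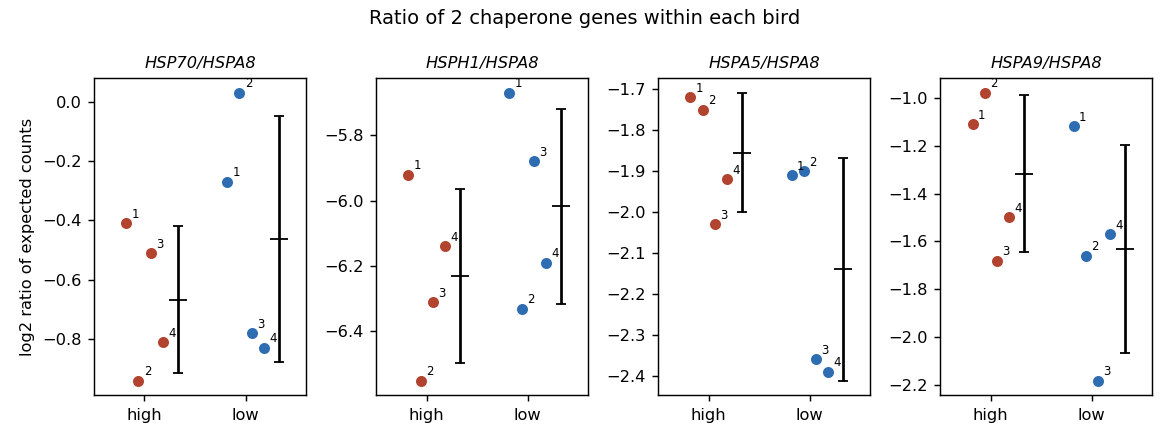
Log2 ratio of the expected counts of 2 genes in each bird (y axes, not from 0), for the 4 ratios. Points are birds with their replicate number, and black bars the mean ± SD. The groups overlap in all 4 panels, and the differences in means lie between -0.21 and 0.32.

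The authors' deposited table was compared with these values. Its fold changes are low over high shear force, so a positive value there means a lower level in high-shear birds. In the authors' deposited table HSP70 had an edgeR log2 fold change of 0.75 with an adjusted p of 0.106, and HSPA8 one of 0.53 with an adjusted p of 0.231. The same authors' deposited table gives DESeq2 adjusted p-values of 0.0310 for HSPA8, 0.0710 for HSP70, 0.0807 for HSPH1 and 0.144 for HSPA4L. HSPA8 was thus the 1 member called in the authors' deposited table, by DESeq2, where 0.483% of its 8076 genes were called lower by DESeq2 and 0.31% by edgeR. For the other 5 members the authors' deposited table has adjusted p-values from 0.436 (HSPA5, DESeq2) to 0.930 (HYOU1, edgeR).

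Reads shared between related chaperones could blur single genes. Expected counts split shared reads into fractions, and 1 of the 72 member values was not a whole number within 1e-06 (HSPA4L in high-shear bird 1), against 8.22% of all gene values. No other gene of the deposited comparison table overlaps the span of any of the 9 members. Each member had 1 transcript in the deposited table, with the same counts as its gene within 0.02, so the transcript data add no separate measurement.

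The partners of HSP70 were read from 7 lists, and none of these lists held a gene with an edgeR adjusted p under 0.05. In the list of HSP70 adaptors, HSP90 proteins and HSP90 partners, 9 of the 11 genes measured were lower, with a median log2 fold change of -0.18. HSP90AA1, the inducible cytosolic HSP90, was at 623, 535, 612 and 544 CPM in high-shear birds 1 to 4, against 669, 760, 1100 and 715 CPM in low-shear birds 1 to 4. Its groups did not overlap, and its log2 fold change was -0.49 ± 0.18 (SE; edgeR adjusted p = 0.340, unadjusted p = 0.0208). It was -0.32 without low-shear bird 3, the highest of the 8. FKBP4, a prolyl isomerase bound to HSP90, was at 99.1, 96.1, 87.8 and 103 CPM in high-shear birds 1 to 4, against 110, 133, 125 and 129 CPM in low-shear birds 1 to 4. It also showed no overlap, with a log2 fold change of -0.36 ± 0.13 (SE; edgeR adjusted p = 0.332). Such a lack of overlap, with the high-shear birds lower, was found in 2.29% of all genes. Of the 11 genes 4 were lower at an unadjusted p under 0.05, against 4.91% of all genes. The 2 beside HSP90AA1 and FKBP4, chosen after their values were seen, were AHSA2, related to an activator of HSP90, at -0.60 ± 0.22, and UNC45B, the myosin chaperone of striated muscle, at -0.45 ± 0.18 (SE). HSP90AB1, the constitutive HSP90, and STIP1, which links HSP70 to HSP90, were at -0.02 ± 0.24 and 0.03 ± 0.21 (SE), and these were also chosen after their values were seen.

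J-domain proteins were lower in 20 of 32 genes, with a median of -0.06. At an unadjusted p under 0.05 there were 4 lower and 1 higher of the 32, where 4.91% of all genes were lower and 7.92% higher. DNAJB6, a J-domain protein of the sarcomere, was at 72.0 ± 8.18 CPM in high-shear birds and 91.4 ± 5.30 CPM in low-shear birds (SD, n = 4 each), without overlap, a log2 fold change of -0.34 ± 0.14 (SE; edgeR adjusted p = 0.340). DNAJB2 went the other way, at 104 ± 15.0 against 79.4 ± 8.41 CPM (SD, n = 4 each), a log2 fold change of 0.39 ± 0.15 (SE; edgeR adjusted p = 0.340). Exchange factors other than HSP110 were lower in 4 of 9 genes, with a median of 0.04. At an unadjusted p under 0.05 there were 0 lower and 1 higher of the 9. BAG1, an exchange factor of cytosolic HSP70, was at 18.4 ± 2.43 against 13.1 ± 2.79 CPM (SD, n = 4 each; log2 fold change 0.50 ± 0.20 SE, edgeR adjusted p = 0.347), and HSPBP1 at 0.48 ± 0.24 (SE; edgeR adjusted p = 0.408). BAG3, named after its values were seen, went the other way, at 233 ± 26.4 against 307 ± 87.5 CPM (SD, n = 4 each). Its log2 fold change was -0.40 ± 0.19 (SE; edgeR adjusted p = 0.410).

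Of the heat shock factors and their binding protein 3 genes were measured, and 0 had an unadjusted p under 0.05 in edgeR. Over all genes 4.91% were lower and 7.92% higher at that threshold, and in a list this short 0 is near those shares. HSF2 was at 29.25 ± 3.45 against 29.5 ± 2.28 CPM and the binding protein HSBP1 at 36.1 ± 1.81 against 32.7 ± 2.97 CPM, in high-shear and in low-shear birds (SD, n = 4 each). HSF1 had no row with that symbol among the genes kept and is not analysed here. Of 17 ER chaperones and genes of the unfolded protein response 9 were lower, with a median of 0.00. At an unadjusted p under 0.05 in edgeR there were 0 of the 17, not far from the shares of all genes (4.91% lower, 7.92% higher). The 2 with the smallest p were SEL1L, an adaptor of ER protein disposal, at -0.51 ± 0.31, and MANF, an ER cofactor of HSPA5, at 0.28 ± 0.17 (SE; edgeR adjusted p = 0.496 and 0.498). Without low-shear bird 3 they were at -0.29 for SEL1L and 0.16 for MANF, and without low-shear birds 1 and 3 at 0.15 for SEL1L and 0.02 for MANF. Of 9 mitochondrial chaperones and import genes 4 were lower, with a median of 0.12. At an unadjusted p under 0.05 in edgeR 1 of the 9 was lower and 1 higher, where 4.91% of all genes were lower and 7.92% higher. PAM16, a subunit of the import motor around HSPA9, was at 0.48 ± 0.19, and HSPD1, the mitochondrial HSP60, at -0.32 ± 0.13 (SE; edgeR adjusted p = 0.340 and 0.347). The groups did not overlap for HSPD1 (90.4 to 104 against 116.5 to 129.5 CPM), which was so in that direction for 2.29% of all genes. PAM16 was at 0.20 without low-shear birds 1 and 3. HSPA13, the 1 measured gene of the other HSP70 relatives listed, was at 5.325 ± 1.58 against 5.67 ± 1.04 CPM (SD, n = 4 each; edgeR adjusted p = 0.911).

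**Figure D5:**
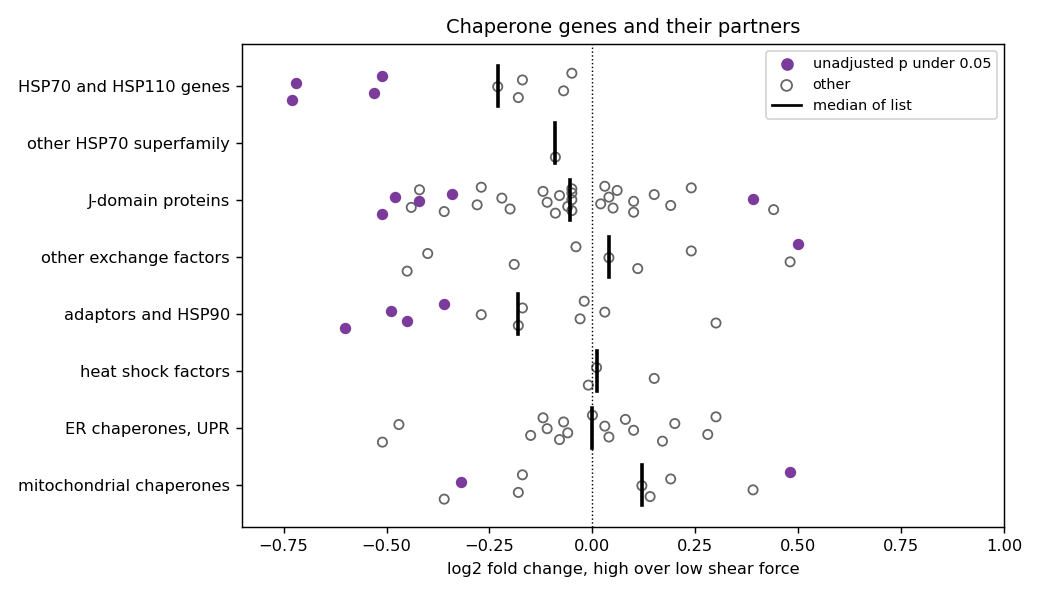
Log2 fold change (x axis, high over low shear force) of the 9 genes and of 7 lists of partner genes (rows). Filled points had an unadjusted p under 0.05 by edgeR, open points did not, and black lines mark the median of each list. The 9 genes have a median of -0.23 and the adaptors and HSP90 proteins one of -0.18, while the ER list is centred on 0.00.

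The genes whose levels ran most like HSPA8, HSP70 and HSPH1 were sought by the root mean square distance between log2 CPM over the 8 birds, each gene centred on its own mean. The nearest to HSPA8 were EIF4E3 at 0.128, SLC15A4 at 0.131 and NCOA4 at 0.132, where the median distance of all genes with a symbol was 0.409. EIF4E3 is a relative of the cap-binding translation factor, SLC15A4 a lysosomal transporter and NCOA4 a receptor for the breakdown of ferritin. Near to HSP70 were KCNK1, a potassium channel, at 0.180 and CHPT1, an enzyme of phosphatidylcholine synthesis, at 0.214, against a median of 0.542. The nearest to HSPH1 were SGTA, a small co-chaperone with tetratricopeptide repeats, at 0.155, KIAA0391 at 0.162 and SLC45A4 at 0.166, against a median of 0.511. None of these genes was itself a member. Their log2 fold changes ran from -0.78 for KCNK1 and CHPT1 to -0.30 for EIF4E3, and none passed by edgeR (smallest adjusted p = 0.150, CHPT1). They were chosen for likeness to genes lower in high-shear birds, so their negative sign follows largely from that choice. Of the members, HSPA4L was nearest to HSPA8 (rank 246 among the 7619 kept genes with a symbol, distance 0.226). HSPA8 was the member nearest to HSP70 (rank 150, distance 0.314) and to HSPH1 (rank 74, distance 0.256). The farthest members were HSPA9 from HSPA8 (rank 2890), HYOU1 from HSP70 (rank 3187) and HSPA9 from HSPH1 (rank 2844).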

How the data were processed

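RNA was kept in RNAlater, extracted with Trizol and made into TruSeq libraries, per the labels' protocols. The labels mention 2 technical repetitions, and how they were combined is not stated. The authors deposited expected counts (estimated, not always whole) for 17108 genes and 17954 transcripts, and, per the file headers, log2 fold changes and p-values from edgeR and DESeq2 for 8076 genes. Tools named in the submitters' processing notes are RSEM, Bowtie2, TopHat, Cuffdiff, FastQC, DESeq2 and edgeR, with the build galGal4 and without versions or roles. How strand was handled is not stated there. The sign of the deposited log2 fold changes was tested against the counts: 7809 of 8076 ran opposite to high over low.

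Counts were rounded to whole numbers and filtered with filterByExpr of edgeR 4.0.16 (10136 genes with 99.8% of counts, 10362 transcripts), scaled by TMM and tested with the robust edgeR quasi-likelihood test on group alone, with Benjamini-Hochberg adjustment over all genes at 0.05 (R 4.3.3). Fold changes are high over low shear force on the log2 scale, and CPM uses TMM library sizes. The SE of an edgeR fold change was worked back from the test. It is the size of the log2 fold change, before the small shrinkage of edgeR, divided by the square root of the F statistic. It thus restates the p-value of that test and is no separate measure of spread. Log2 CPM for distances and principal components used a prior count of 2. Ratios of rounded counts were compared by exact permutation, adjusted over 4 ratios. All p-values are 2-sided and set the difference between groups against the spread between the birds sampled. In edgeR, DESeq2 and limma-voom the spread of a gene is estimated partly from the other genes.

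Alternatives were RLE and upper-quartile scaling, no filter, 1 CPM in at least 4 birds, DESeq2 1.42.0, limma-voom (limma 3.58.1), non-robust shrinkage, the replicate block, each bird left out, low-shear birds 1 and 3 left out, and unrounded counts. DESeq2 with its filter tuned for 0.1 was added after the data were seen. The edgeR tests were checked on simulated counts. Of 100 genes given a log2 change of 1, 45 were called, and of 100 given a change of 2, 94 were, with 9 false among 148 calls. For transcripts these were 39 and 88 of 100, with 9 false among 136 calls. Changes below 1, where all members' estimates lay, were not simulated.

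The members and all lists were chosen with earlier results of these data known. Named were all members, the 2 partners with the smallest p in each list, and the 3 genes nearest to HSPA8, HSP70 and HSPH1. Genes outside this rule are marked in the text, and some genes are not reported here. Gene symbols come from the deposited table, RefSeq names from the GRCg7b table, from which no coordinates were taken.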

Additional observations from a re-analysis of the deposited data

Results flagged for a closer look

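In a group of 4 birds a single bird was marked where its gap to the nearest other bird took a larger share of the group's range than Dixon's 95% critical value allows, which chance gives in about 1 in 20 groups; 70 groups were tested. HSPA4 was marked in the high-shear group, where bird 3 was at 140 CPM and the others at 195 to 205 CPM (gap share 0.839). HYOU1 was marked in the same bird, at 56.1 CPM against 38.7 to 40.9 CPM in the other 3 (gap share 0.874). Among the partners, DNAJB6 in low-shear bird 2 stood at 99.3 CPM and the others at 88.2 to 89.5 CPM (gap share 0.885). HSPA13 in low-shear bird 1 stood at 7.22 CPM, with 5.09 to 5.21 CPM in the other 3 (gap share 0.944). The causes were not tested.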

How the results depend on the processing

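The number of members lower at an unadjusted p under 0.05 was 4, also with each bird left out and under both other scalings. It was 3 without low-shear birds 1 and 3 (HSPH1 was lost). The number without overlap between groups was 3 or 4 with 1 bird or low-shear birds 1 and 3 left out. Leaving birds out narrows the range of a group, so this number could hardly fall and does not measure stability. The number of genes called by edgeR was 0 in the main test and 7 without a filter, 1 with the replicate block, and from 0 to 7 with 1 bird left out. DESeq2 called 123 genes, with its filter tuned for 0.05 or for 0.1, and 1 member each time. For transcripts the count of 0 became 126 by DESeq2, 115 with the filter tuned for 0.1, from 0 to 3 with 1 bird left out, and 3 without low-shear birds 1 and 3, and DESeq2 called 1 member transcript. The direction turned for HYOU1 (from -0.19 to 0.01 with 1 bird left out, and 0.06 without low-shear birds 1 and 3 for both gene and transcript). It also turned for HSF2 (0.00 with upper-quartile scaling and without low-shear bird 1, from -0.08 to 0.05 with 1 bird left out), for HSPA13 (from -0.28 to 0.06 with 1 bird left out, 0.03 without low-shear bird 1, 0.02 without low-shear birds 1 and 3), and for SEL1L (0.15) and the HSPH1 to HSPA8 ratio (0.03) without low-shear birds 1 and 3. The causes were not tested. With 1 bird left out the ratio differences ran from -0.33 to -0.04 for HSP70, -0.32 to -0.10 for HSPH1, 0.20 to 0.36 for HSPA5 and 0.13 to 0.49 for HSPA9, each over HSPA8; 3 against 4 birds cannot give an exact p below 0.0571.

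Birds were not paired by number, since the labels do not say that the numbers pair birds. Deviations of same-numbered birds correlated at 0.014, -0.003, 0.205 and 0.318, 2 of 4 above 0.1. Of 8 birds 3 correlated best with their own number, and these values do not settle whether the birds were paired. With the replicate block HSP70 stood at -0.70 and HSPA8 at -0.50. Promoter motifs were not run, since no sequence table was used here. HSPH1 rested on 42 to 130 counts per bird, the lowest of the 9 members.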
